A study of Mus musculus with 60 samples.

Results

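The 9 genes described here mark the walls of blood vessels. Cldn5, Pecam1, Flt1, Kdr, Ly6c1 and Slco1a4 mark endothelial cells, and Acta2, Pdgfrb and Rgs5 mark mural cells, which are the smooth muscle cells and pericytes wrapped around the endothelium. They were taken by gene name from a table of 55414 genes, and each name matched 1 protein-coding gene. The tissue was the medial prefrontal cortex (mPFC), taken from mice of the inbred strain DBA2/J in which the ribosomal protein L10a carries GFP (GFP-L10a), and its RNA was sequenced. Input libraries were made from bulk mPFC with no antibody. IP libraries were made from RNA pulled down with an anti-GFP antibody, and the labels give their cell type as aPVT projector. The experiment used social defeat, repeated encounters with an aggressor, over 5 days. Its groups are NS and 4 subtypes, which the labels call SA, ANH, RES and SA:ANH. The labels do not spell out these names, and do not say which groups were defeated, how old the animals were or what drives the tagged ribosomal protein. All groups share the strain and the tag, and there were 6 Input and 6 IP libraries for each group.

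Gene positions are printed as deposited, on a build not given in the sources used here. The endothelial genes are Cldn5 (ENSMUSG00000041378.3, chr16:18595597-18597012, plus strand), Pecam1 (ENSMUSG00000020717.20, chr11:106545043-106641454, minus strand) and Flt1 (ENSMUSG00000029648.14, chr5:147498414-147662821, minus strand). The others of this type are Kdr (ENSMUSG00000062960.11, chr5:76093487-76139118), Ly6c1 (ENSMUSG00000079018.11, chr15:74915867-74920679) and Slco1a4 (ENSMUSG00000030237.15, chr6:141751166-141801925), all on the minus strand. The mural genes are Acta2 (ENSMUSG00000035783.10, chr19:34218490-34232990, minus strand), Rgs5 (ENSMUSG00000026678.11, chr1:169483070-169523382, plus strand) and Pdgfrb (ENSMUSG00000024620.12). Each value is an expected count for a gene, and no other gene in the table overlaps a member. Exon length below is the gene length deposited with the counts.

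Library totals were 19078928 to 27073456 counts. The 5 excitatory neuron markers summed to 5529 to 7277 CPM (counts scaled to a library of 1000000) over the IP libraries and 4362 to 5021 CPM over the Input libraries, and the 5 inhibitory neuron markers to 35.1 to 126 and 863 to 1011 CPM. Whether the 6 libraries of a group stem from 6 animals is not stated, so p-values measure only how far these libraries differ, and that spread can be technical. Levels are in CPM and are given as the mean ± SD or as the lowest, the median and the highest of 6 libraries. Differences are log2 fold changes ± SE. The SE is approximate: it is the absolute log2 fold change divided by the square root of the F statistic of the test. It is least reliable where a group is at or near 0. Adjusted p-values are from the quasi-likelihood test of edgeR, adjusted by Benjamini-Hochberg over all genes tested, and a gene is said to rise or fall only where this value is under 0.05.

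The endothelium of the brain forms the blood-brain barrier: its cells are sealed by tight junctions, carry selective transporters and are held in this state by signals from pericytes and astrocytes. Growth of the endothelium is steered by VEGF through its receptors, and pericytes are recruited to it by PDGF released from endothelial cells. Smooth muscle cells on arterioles contract through actin and myosin and so set the width of the vessel.

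In Input all 9 genes had counts in every library, from 51 counts of Kdr in the lowest library to 1947 of Cldn5 in the highest. Divided by exon length, the level was highest for the 2 short endothelial genes: Ly6c1, a surface protein anchored in the outer membrane, stood at 67.4 ± 6.28 CPM per kb over the 30 Input libraries, and Cldn5, the main claudin of brain tight junctions, at 46.2 ± 3.27. Acta2, the actin of smooth muscle, followed at 5.17 ± 1.13 CPM per kb and Rgs5, a regulator of G protein signalling typical of pericytes, at 3.48 ± 0.57. Slco1a4, an organic anion transporter of the barrier, stood at 2.53 ± 0.582 CPM per kb, Pecam1, an adhesion protein between endothelial cells, at 2.45 ± 0.551, Pdgfrb, the PDGF receptor of pericytes, at 2.32 ± 0.456 and Flt1, a VEGF receptor that also acts as a decoy, at 2.24 ± 0.292. These 4 did not differ beyond their spread. Kdr, the main signalling receptor for VEGF, was lowest at 1.11 ± 0.331 CPM per kb.

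The coefficient of variation of the 6 libraries was 4.09% to 7.3% for Cldn5 and 3.77% to 9% for Ly6c1, depending on the group, against 4.68% to 16.6% for Acta2, 8.79% to 17.2% for Flt1 and 11.2% to 38.9% for Kdr. The SE of a log2 fold change between groups was accordingly 0.06 for Cldn5 and Ly6c1 and 0.23 to 0.24 for Kdr.

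All 9 genes were lower in IP than in Input, in a comparison in which 42.6% of 18937 genes were called lower. The median of the 9 log2 fold changes was -5.02, beside a median of -0.08 over all genes tested. For 8 of the 9 genes every IP library lay below every Input library, which held for 7.94% of all genes tested. The mean IP level of these 8 was 1.39% (Ly6c1) to 6.88% (Flt1) of the mean Input level.

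**Figure D1:**
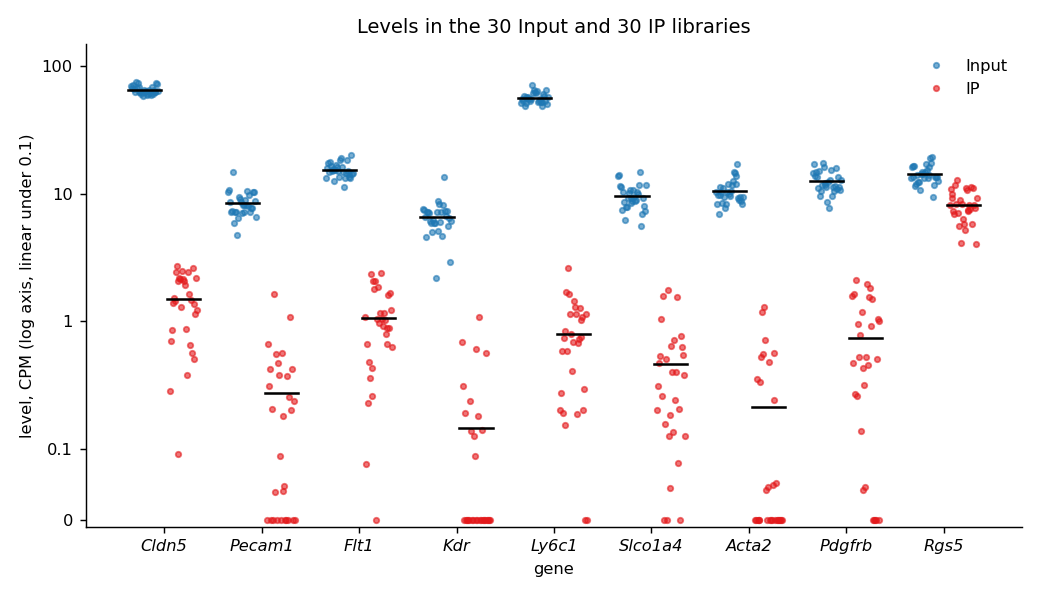
Levels of the 9 genes in CPM (vertical axis, log scale, linear under 0.1) in each of the 30 Input and 30 IP libraries, with black bars for the mean of each fraction. The IP points of Rgs5 overlap its Input points, while those of the other 8 genes lie below all their Input points; many of Kdr, Acta2 and Pecam1 are at 0.

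Among the endothelial genes, Ly6c1 stood at 0.794 ± 0.594 CPM in IP and 56.9 ± 5.3 in Input (n = 30 each), a difference of -6.30 ± 0.12 (adjusted p = 3.54e-49). Cldn5 stood at 1.49 ± 0.769 and 65.5 ± 4.62 CPM (-5.45 ± 0.11, adjusted p = 3.33e-47). The differences of the other endothelial genes were -5.51 ± 0.33 for Kdr, -5.02 ± 0.28 for Pecam1, -4.37 ± 0.23 for Slco1a4 and -3.91 ± 0.16 for Flt1. Kdr had 0 counts in 18 of the 30 IP libraries and Pecam1 in 10.

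The mural genes did not share 1 level of depletion. Acta2 had the most negative fitted log2 fold change of the 9 (0.215 ± 0.355 against 10.5 ± 2.29 CPM, -6.89 ± 0.25, adjusted p = 3.04e-32) though its mean IP level, 2.04% of the Input mean, was not the lowest share. It had 0 counts in 16 of the 30 IP libraries, among them all 6 of RES. The fitted value averages the 5 groups, and its RES term is not a measured ratio. Neither the value nor its rank among the 9 is thus a fully measured one. Pdgfrb differed by -4.11 ± 0.24 (0.737 ± 0.669 against 12.6 ± 2.48 CPM). Rgs5 stood at 8.23 ± 2.27 CPM in IP and 14.3 ± 2.34 in Input, which is 57.8% of the Input mean (-0.75 ± 0.08, adjusted p = 1.42e-12). Of its 30 IP libraries 22 lay below all Input libraries, and its counts per IP library ran from 86 to 325. Divided by exon length, Rgs5 stood at 2.01 ± 0.555 CPM per kb in IP, Pdgfrb at 0.136 ± 0.123 and Acta2 at 0.105 ± 0.175. The Rgs5 transcript shared no stretch of 100 bases with another gene in the GENCODE annotation searched, and which cells the Rgs5 counts in IP came from was not tested.

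Other genes of the vessel wall were also low in IP. Of 26 further endothelial genes 24 were lower in IP, at a median of -3.97, and Tjp1, a junction scaffold (0.09 ± 0.08), and Egfl7, a secreted vascular factor (0.01 ± 0.03), did not pass the test; both are named here as the exceptions, after their values were seen. All 12 pericyte genes were lower (median -4.72), from Kcnj8, a potassium channel subunit (-6.95 ± 0.37), to Zic1, a transcription factor (-0.77 ± 0.17). All 8 smooth muscle genes tested were lower, at a median of -1.64, among them Des, a filament protein of muscle (-2.01 ± 0.34), Tagln, an actin-binding protein (-1.27 ± 0.16), and Cnn1, calponin (-1.20 ± 0.42). Of 12 VEGF, angiopoietin and PDGF ligands and co-receptors, 6 were lower and 4 higher, beside 42.6% and 32.8% of all genes tested. Vegfa, the main VEGF ligand, was lower (-1.37 ± 0.07) and Pdgfb, the ligand of Pdgfrb, higher (0.43 ± 0.05).

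To ask whether vessel genes differed between the subtypes in bulk cortex, each subtype was set against NS in Input. Of the 9 genes, 0 were called in SA, 1 in SA:ANH (Ly6c1), 1 in ANH (Acta2) and 0 in RES. The shares of all 18170 genes called in these comparisons were 2.83%, 5.65%, 2.62% and 3.23%. The medians of the 9 log2 fold changes were -0.08, -0.11, -0.08 and -0.17, and those of all genes lay within 0.01 of 0. The 4 comparisons share the NS libraries. At an unadjusted p under 0.05, 2 genes passed in SA, 3 in SA:ANH, 2 in ANH and 2 in RES. DESeq2 called 1 gene in SA and 1 in RES, Pecam1 and Slco1a4. The shares of all genes that pass unadjusted or with DESeq2 are not given, here or for later comparisons. In bulk tissue, fewer cells of a type and less RNA per cell cannot be told apart.

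**Figure D2:**
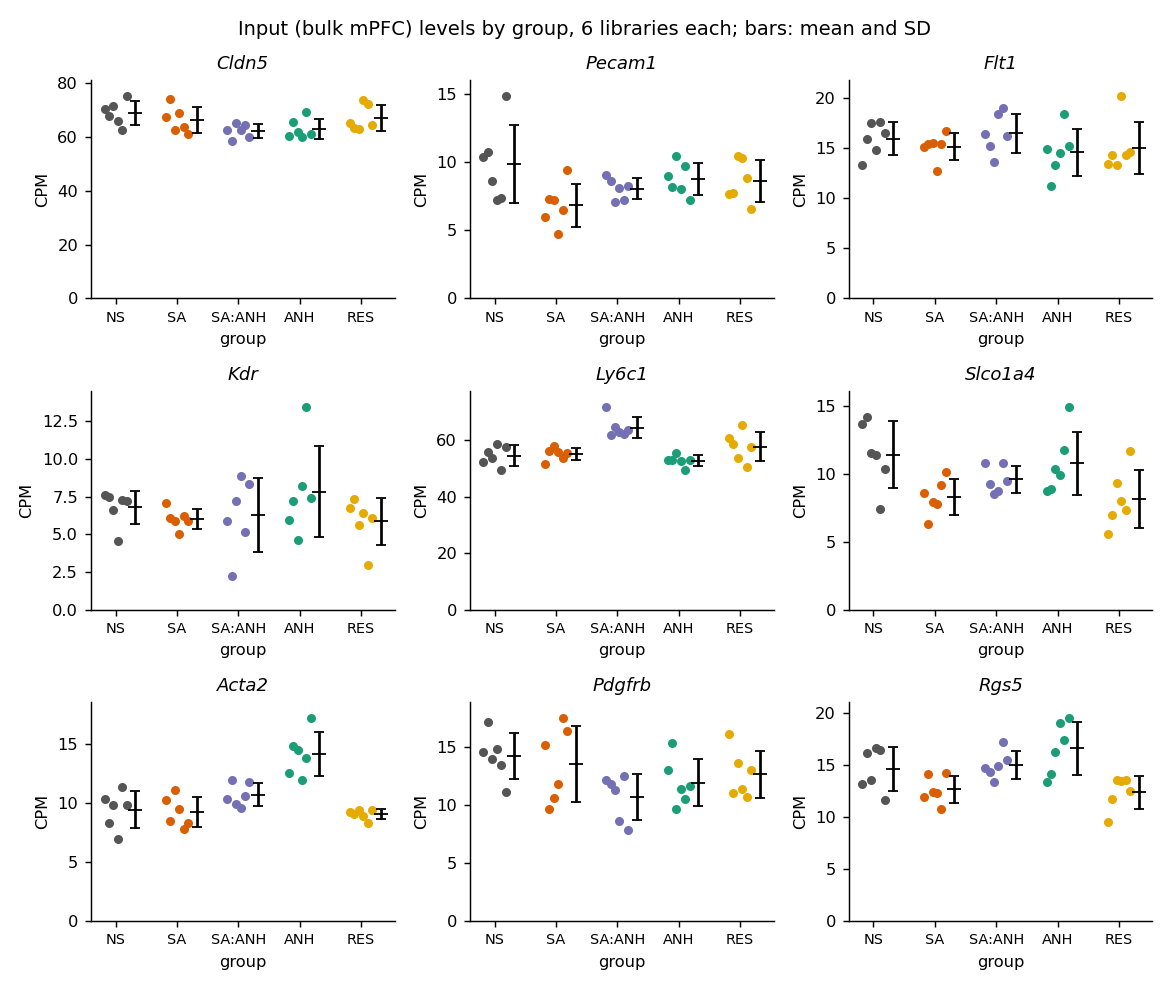
Input levels of the 9 genes in CPM (vertical axes start at 0) in the 6 libraries of each group, with the mean and SD beside the points. The ANH points of Acta2 lie above all NS and RES points, the SA:ANH points of Ly6c1 above all NS points, and the groups of the other 7 genes overlap with NS.

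Acta2 was the gene that differed most. Its 6 libraries ran from 6.96 over a median of 9.82 to 11.4 CPM in NS, from 7.79 over 8.98 to 11.1 in SA and from 9.62 over 10.5 to 12 in SA:ANH. They ran from 11.9 over 14.2 to 17.2 CPM in ANH and from 8.31 over 9.13 to 9.43 in RES. The ANH libraries were high, all above the NS, SA and RES libraries, and the lowest ANH library fell just short of the highest SA:ANH library. Acta2 rose in ANH against NS by 0.58 ± 0.11, or 49.8% (14.1 ± 1.87 against 9.44 ± 1.56 CPM, n = 6 each, adjusted p = 0.00179, higher in 6 of 6 libraries). Groups that do not overlap with ANH the higher were found for 1.3% of all genes in that comparison. In the order of the group means, SA:ANH, NS, SA and RES followed ANH. The step from ANH to SA:ANH, 3.42 CPM, exceeded the larger SD, and the later steps did not. All 6 SA:ANH libraries lay above all 6 RES libraries, as for 0.473% of all genes, but that comparison called 0 of the 9 genes.

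The comparisons between subtypes placed Acta2 in ANH above RES by 0.65 ± 0.11 (adjusted p = 0.000553) and placed SA below ANH by -0.61 ± 0.11 (adjusted p = 0.000388). All 6 ANH libraries lay above all 6 libraries of the other group in both, which held for 1.44% and 2.49% of all genes. SA:ANH against ANH gave -0.40 ± 0.11, which did not pass (adjusted p = 0.0646; 0.0206 with DESeq2). Over the 5 groups together Acta2 had an adjusted p of 0.000265, in a test that called 12.9% of all genes. Leaving out each of the 12 libraries in turn kept Acta2 called in every refit of ANH against NS, ANH against RES and SA against ANH. Its log2 fold change against NS was then 0.51 to 0.64.

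Acta2 is a classic target of SRF, a transcription factor that binds the CArG box, which is CC, then 6 bases that are A or T, then GG. The 250 bases before the transcription start of Acta2 are shown because it is the member with the largest Input difference; they are from RefSeq on GRCm38.p6, chr19:34255374-34255623, minus strand. These positions and the deposited ones are not on 1 scale. Capitals mark stretches that match the box with at most 1 of the 6 middle bases other than A or T, a pattern that reads the same on both strands.
Acta2 promoter: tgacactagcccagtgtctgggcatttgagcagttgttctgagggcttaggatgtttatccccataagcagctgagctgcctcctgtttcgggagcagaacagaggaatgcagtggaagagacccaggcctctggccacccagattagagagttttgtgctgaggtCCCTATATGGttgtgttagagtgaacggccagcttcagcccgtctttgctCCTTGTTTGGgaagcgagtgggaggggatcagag
The matches begin 84 and 34 bases before the start, and each has 1 middle base other than A or T. Of 32851 promoters of this length in the table, 8.59% held at least 1 such match and 0.67% at least 2. Of the 7 members with a promoter in the table, Kdr and Slco1a4 also held at least 1 match, and Acta2 was the member that held 2. A match is a description of the letters and not a site shown to be bound.

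Other smooth muscle genes were looked at beside Acta2. Of 8 tested, 0 were called in ANH against NS, in any other Input comparison or over the 5 groups, with a median of 0.26 in ANH against NS. The shares of all genes called were 2.62% in ANH against NS and 12.9% over the 5 groups, so that 0 of 8 is near the share of all genes. Tagln stood at 5.08 ± 0.663 CPM in ANH and 4.08 ± 0.808 in NS (0.32 ± 0.21, adjusted p = 0.492). Des stood at 1.89 ± 0.574 and 2.18 ± 1.01 CPM (-0.21 ± 0.38, adjusted p = 0.855). Cnn1 had the largest value, 1.95 ± 0.68, at 0.804 ± 0.479 against 0.204 ± 0.169 CPM (adjusted p = 0.122). Whether Acta2 differed from these genes in its response was not tested.

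**Figure D3:**
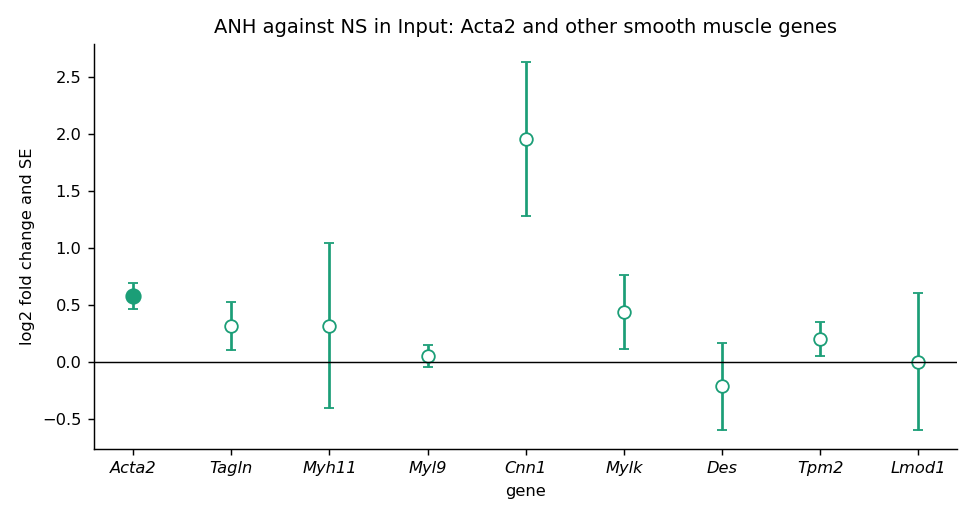
Log2 fold change and SE of ANH against NS in Input for Acta2 and the 8 other smooth muscle genes tested. Acta2, the filled point, stands at 0.58 and passed the test; the open points did not pass, and their error bars are wide for genes with few counts such as Cnn1 and Myh11.

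Of the 1936 windows of 100 bases, the read length, in the Acta2 transcript, 0 occur in another gene. Acta1, the skeletal muscle actin, stood at 30.6 ± 2.93 CPM in ANH Input and 31.7 ± 2.57 in NS Input (-0.05 ± 0.07), and Actb at 2268 ± 142 and 2240 ± 58.4. Markers of other cell types also stood at other levels in ANH than in NS. The 8 oligodendrocyte markers summed to 4255 to 4365 CPM in ANH and 2476 to 2632 in NS, and the 5 red cell markers to 1497 to 1582 and 867 to 940. The 8 meningeal fibroblast markers, some of which smooth muscle shares, ran from 60.3 to 72.6 CPM in ANH and from 71.4 to 77.6 in NS. None of these markers was at 0 in either group, and their part in the Acta2 result was not tested.

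Ly6c1 was higher in SA:ANH. Its 6 libraries ran from 49.3 over a median of 54.8 to 58.7 CPM in NS, from 51.6 over 55.6 to 58.1 in SA and from 61.7 over 63.2 to 71.7 in SA:ANH. They ran from 49.3 over 53 to 55.5 CPM in ANH and from 50.5 over 58.1 to 65.2 in RES. The SA:ANH libraries lay above all libraries of NS, SA and ANH and overlapped with RES. Ly6c1 rose in SA:ANH against NS by 0.24 ± 0.06, or 18.1% (64.5 ± 3.74 against 54.6 ± 3.57 CPM, n = 6 each, adjusted p = 0.00861, higher in 6 of 6 libraries). Groups that do not overlap with SA:ANH the higher were found for 1.18% of all genes.

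Against the other subtypes Ly6c1 was higher in SA:ANH than in ANH by 0.29 ± 0.06 (adjusted p = 0.00259) and than in SA by 0.23 ± 0.06 (adjusted p = 0.0195). The shares of all genes called were 1.64% and 3.54%, and those of all genes with no overlap in this direction 0.644% and 0.787%. The difference from RES was 0.16 ± 0.06 (adjusted p = 0.208, 95% interval 0.05 to 0.27), in a comparison that called 0 of the 9 genes, with edgeR and with DESeq2, and 0.693% of all genes; 3 members passed at an unadjusted p under 0.05. The call against SA was lost without SA replicate 1, SA replicate 5 or SA:ANH replicate 1 (adjusted p = 0.0507 to 0.0736), while those against NS and ANH held without any 1 library.

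Of the 745 windows of 100 bases in the Ly6c1 transcript, 15.3% also occur in Ly6c2, its neighbour and near copy, so that some reads may be assigned to either gene. In Input Ly6c2 differed between SA:ANH and NS by -0.25 ± 0.42 (adjusted p = 0.824). Ly6a, a related surface protein of endothelial cells, stood at 39.4 ± 2.5 CPM in SA:ANH and 39 ± 4.73 in NS (0.02 ± 0.07, adjusted p = 0.941). The 5 red cell markers, all detected, summed to 1447 to 1614 CPM in SA:ANH and 867 to 940 in NS. Their sums were 1464 to 1621 CPM in SA and 1497 to 1582 in ANH. Mean Ly6c1 levels were 55.1 ± 2.25 CPM in SA and 52.8 ± 1.99 in ANH. The part of the red cell markers in the Ly6c1 result was not tested.

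The group means of Rgs5 in Input had the same order as those of Acta2, with smaller differences at the upper end. Its libraries ran from 11.6 over a median of 14.9 to 16.6 CPM in NS, from 10.8 over 12.4 to 14.2 in SA and from 13.3 over 14.8 to 17.3 in SA:ANH. They ran from 13.4 over 16.8 to 19.5 CPM in ANH and from 9.48 over 13 to 13.5 in RES. All groups overlapped with their neighbours. Rgs5 was not called against NS in any subtype, and the difference in ANH was 0.19 ± 0.11 (adjusted p = 0.438). It was higher in ANH than in RES by 0.42 ± 0.11 (adjusted p = 0.023) and lower in SA than in ANH by -0.39 ± 0.11 (adjusted p = 0.0227).

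Both comparisons called Acta2 and Rgs5, 2 of the 9 genes, beside 4.22% of all genes in ANH against RES and 7.88% in SA against ANH. They share the ANH libraries. The Rgs5 call against RES was lost without ANH replicate 4, 5 or 6 or RES replicate 1 (adjusted p = 0.0522 to 0.0759) and in a fit of only the 12 libraries (0.0539). The call of SA against ANH was lost without SA replicate 1 or 5 or ANH replicate 4, 5 or 6 (adjusted p = 0.0516 to 0.0785). SA against RES called 0 of the 9 genes, with edgeR and with DESeq2, and 1.1% of all genes, and 1 member passed at an unadjusted p under 0.05.

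Pdgfrb, the third mural gene, did not show the order of Acta2. Its mean was highest in NS (14.2 ± 1.98 CPM), then SA (13.5 ± 3.25), RES (12.6 ± 2.05), ANH (11.9 ± 2.02) and SA:ANH (10.7 ± 1.98). The largest difference from NS was -0.41 ± 0.15 in SA:ANH and did not pass (adjusted p = 0.102). Acta2 and Pdgfrb had opposite signs in ANH against NS (0.58 and -0.25), though the value of Pdgfrb did not pass (adjusted p = 0.425). The 3 mural genes together summed to 38.9 to 48.4 CPM in ANH and 32.5 to 41.7 in NS.

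**Figure D4:**
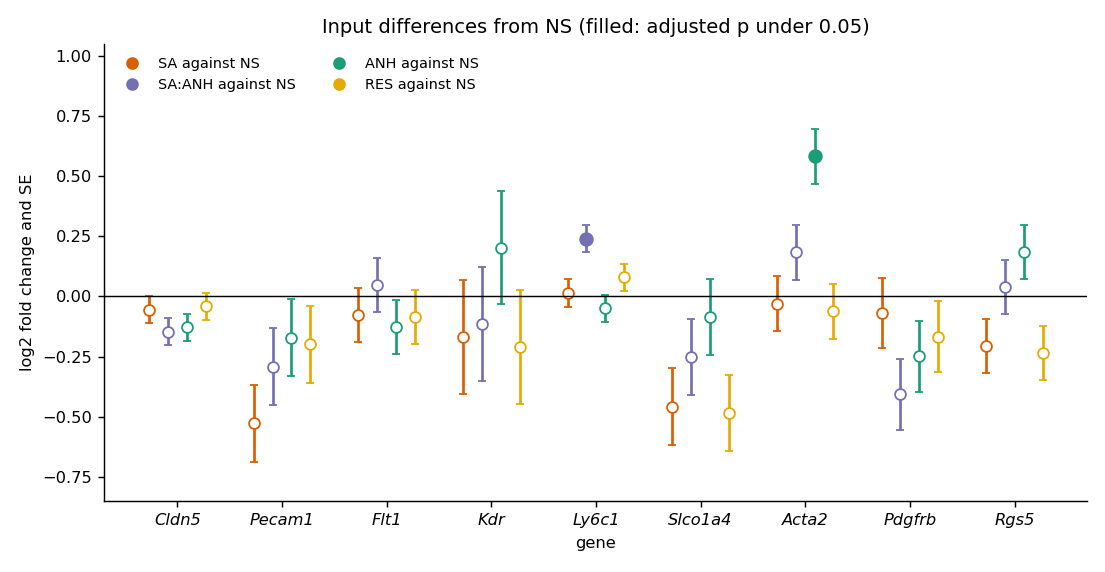
Log2 fold change and SE of each subtype against NS in Input for the 9 genes; filled points passed the test at an adjusted p under 0.05. The filled points are Acta2 in ANH (0.58) and Ly6c1 in SA:ANH (0.24), and the open points of Pecam1 and Slco1a4 lie lowest, in SA and RES.

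The other endothelial genes did not pass against NS. Pecam1 ran from 7.23 over a median of 9.49 to 14.9 CPM in NS and from 4.73 over 6.84 to 9.41 in SA, a difference of -0.53 ± 0.16 (adjusted p = 0.0673; 0.0273 with DESeq2). Slco1a4 ran from 7.43 over 11.5 to 14.2 CPM in NS, from 6.28 over 8.27 to 10.1 in SA and from 5.62 over 7.69 to 11.7 in RES. It differed from NS by -0.46 ± 0.16 in SA (adjusted p = 0.124) and by -0.49 ± 0.16 in RES (adjusted p = 0.086; 0.0435 with DESeq2). Of the 3724 windows in its transcript 1.1% also occur in Slco1a5 or Slco1a1.

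Cldn5 means were 68.9 ± 4.45 CPM in NS, 66.9 ± 4.83 in RES, 66.3 ± 4.84 in SA, 63 ± 3.69 in ANH and 62.2 ± 2.55 in SA:ANH. The difference in SA:ANH was -0.15 ± 0.06 (adjusted p = 0.117), with a 95% interval of -0.26 to -0.04. Those in ANH, SA and RES were -0.13 ± 0.06, -0.06 ± 0.06 and -0.04 ± 0.06.

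The VEGF receptors did not pass in any Input comparison. Flt1 means ran from 14.6 ± 2.35 CPM in ANH to 16.5 ± 2 in SA:ANH, and its differences from NS lay between -0.13 and 0.05. Kdr means ran from 5.87 ± 1.55 CPM in RES to 7.82 ± 3.03 in ANH, and its differences from NS lay between -0.21 and 0.20 with SEs of 0.23 to 0.24. Over the 9 genes and 36 pairs of groups next to each other in the order of Input means, the difference exceeded the larger SD in 2, Acta2 in ANH over SA:ANH and Ly6c1 in SA:ANH over RES. The 6 endothelial genes summed to 152 to 184 CPM over all 30 Input libraries.

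Among the 26 further endothelial genes, 5 were called over the 5 Input groups, a test that called 12.9% of all genes. Against NS 0 were called in SA, 2 in SA:ANH, 1 in ANH and 2 in RES, beside 2.83%, 5.65%, 2.62% and 3.23% of all genes. Cd34, a sialomucin of endothelial and progenitor cells, stood at 112 ± 7.68 CPM in NS and 115 ± 8.57 in SA. It rose against NS in SA:ANH (135 ± 4.04 CPM, 0.27 ± 0.06, adjusted p = 0.00422), ANH (138 ± 12.5 CPM, 0.30 ± 0.06, adjusted p = 0.00161) and RES (138 ± 11.9 CPM, 0.30 ± 0.06, adjusted p = 0.00145). Slc2a1, the glucose transporter of the barrier, rose in SA:ANH (0.21 ± 0.05, adjusted p = 0.0199) and RES (0.21 ± 0.05, adjusted p = 0.0216). Ly6a (adjusted p = 0.0393), Slc38a5, an amino acid transporter (0.0399), and Tjp1 (0.0494) passed over the 5 groups but in no comparison with NS; the last 2 are named to complete the count. Cd34 stood at 82 ± 12.6 CPM in IP and 128 ± 14.7 in Input, so that, unlike the 6 endothelial members, it was not near 0 in IP.

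Of the 12 pericyte genes, 1 was called over the 5 groups, beside the same 12.9%. Zic1 fell against NS in ANH (0.993 ± 0.279 against 2.76 ± 0.739 CPM, -1.47 ± 0.34, adjusted p = 0.00926) and RES (-1.32 ± 0.33, adjusted p = 0.0209). It stood at 1.4 ± 0.615 CPM in SA (-0.98 ± 0.33, adjusted p = 0.111) and 1.46 ± 0.492 in SA:ANH (-0.92 ± 0.33, adjusted p = 0.0973), which did not pass. Atp13a5, a transport ATPase, fell in SA (3.91 ± 1.17 against 7.36 ± 1.45 CPM, -0.91 ± 0.22, adjusted p = 0.0158). Kcnj8 did not pass in ANH (0.49 ± 0.15, adjusted p = 0.0766). Among the ligands, Pdgfb, which signals to Pdgfrb, rose in SA (21.2 ± 0.913 against 15.8 ± 1.42 CPM, 0.43 ± 0.11, adjusted p = 0.0307) and RES (0.43 ± 0.11, adjusted p = 0.0268). Vegfa did not pass in any subtype, with values from -0.14 to 0.13.

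Pairs of the 9 genes were also compared across the 30 Input libraries. Of 36 pairs, 21 had a positive and 15 a negative Pearson correlation of log2 CPM (median r = 0.0851, from -0.381 to 0.537). At an adjusted p under 0.05 by permutation 0 pairs passed by r, and 0 by Spearman's rho, while 3 passed unadjusted by r. Within groups 0 passed. The genes most like each member in Input, by r over 30 libraries among 14883 genes, included Neurod6 (r = 0.773) and Malat1 (0.762) for Rgs5, Rapgef4 (0.751) for Acta2, Rnf220 (0.735) and Fos (0.713) for Ly6c1 and Sdcbp (0.754) for Slco1a4. These points share groups and library depth, and the values are a description.

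In IP the same comparisons rested on few counts. Kdr was left out by the filter on low counts, and 8 of the 9 genes were tested. In SA against NS the adjusted p was under 0.05 for 2 genes, Acta2 and Ly6c1, beside 16.6% of all 16670 genes. Acta2 reached the filter's cut of 0.427 CPM in 5 of 6 SA libraries and 2 of the 24 others, so it entered the test through the group where it is high; its IP p-values are given as a description. In SA:ANH, ANH and RES 0 were called, beside 19.7%, 7.4% and 4.36%. At an unadjusted p under 0.05, 2 genes passed in SA:ANH, 0 in ANH and 2 in RES, and DESeq2 called 0 in each. Over the 5 groups Acta2 had an adjusted p of 0.0024, with the same limit, and 0 of the other 7 passed (1 of them, Ly6c1, at an unadjusted p under 0.05 and with DESeq2), beside 33.1% of all genes.

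**Figure D5:**
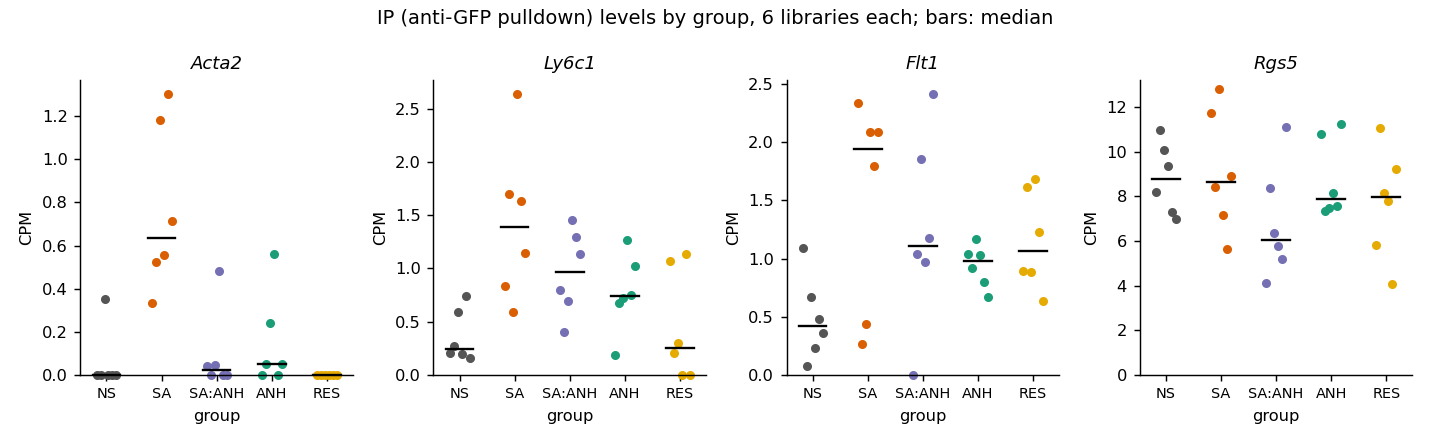
IP levels in CPM of Acta2, Ly6c1, Flt1 and Rgs5 in the 6 libraries of each group, with bars for the median. All 6 SA libraries hold Acta2 counts, all 6 RES libraries are at 0, and Rgs5 overlaps in all groups.

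Acta2 had 8, 12, 30, 12, 32 and 15 counts in the 6 SA IP libraries, 109 in all. In NS IP it had 9 counts in replicate 3 and 0 in the other 5 libraries. It had 14 counts in SA:ANH and 20 in ANH over the group and 0 in all 6 RES libraries. SA was thus the group in which every IP library held Acta2 counts, and its lowest library (0.335 CPM) lay just under the single NS library with counts (0.352). The log2 fold change of SA against NS was 3.56 ± 1.19 (adjusted p = 0.0374), and it rests on the 9 counts of NS replicate 3, without which NS is at 0 and the fitted value, no longer a measured ratio, is 7.15. The call was lost on leaving out any of 10 of the 12 libraries (adjusted p up to 0.0876), all but SA replicate 1 and NS replicate 3, with DESeq2 (0.0537) and without the filter on low counts (0.0697). In a fit of only the 12 libraries Acta2 did not reach the filter and was not tested.

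Ly6c1 ran from 0.155 over a median of 0.237 to 0.738 CPM in NS IP and from 0.59 over 1.39 to 2.64 in SA IP, and the groups overlapped. It rose by 1.97 ± 0.68 (adjusted p = 0.0432), with 195 counts over the 6 SA libraries and 52 over the 6 NS libraries. This call was lost on leaving out any of 8 of the 12 libraries (adjusted p up to 0.118), all but SA replicates 1 and 3 and NS replicates 3 and 5. It was also lost without the filter on low counts (0.0676) and with replicate number as a block (0.0529). Flt1 ran from 0.078 over 0.419 to 1.09 CPM in NS and from 0.261 over 1.94 to 2.34 in SA (1.62 ± 0.60, adjusted p = 0.063; 0.0317 with DESeq2). Rgs5, the member with most IP counts, gave 0.05 ± 0.22.

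The difference between SA and NS was tested for being unlike in the 2 fractions. It was larger in IP for Acta2 (3.54 ± 0.72, adjusted p = 0.000388), Ly6c1 (1.91 ± 0.42, adjusted p = 0.00103) and Flt1 (1.67 ± 0.49, adjusted p = 0.0208), 3 of 9 genes beside 9.05% of all 18937. Each of the 3 calls held without any 1 of the 12 IP libraries, but the Acta2 value rests on NS replicate 3 and was 7.23 without it, when NS is at 0 in IP. With replicate number as a block, Flt1 was no longer called (1.61, adjusted p = 0.0905). In Input the same 3 genes differed between SA and NS by -0.03, 0.01 and -0.08. The other subtypes gave 0 of 9, beside 15.2% (SA:ANH), 3.62% (ANH) and 2.69% (RES). At an unadjusted p under 0.05, 3 genes passed in SA:ANH, 2 in ANH and 2 in RES, and DESeq2 called 2, Flt1 and Ly6c1, in SA:ANH and 0 in ANH and RES.

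Markers of other cells differed between the IP groups too. Of the 5 red cell markers, all detected, 4 were called higher than in NS in SA, 5 in SA:ANH, 3 in ANH and 3 in RES. The shares of all genes called in either direction were 16.6%, 19.7%, 7.4% and 4.36%. They summed to 38.2 to 50.9 CPM in SA IP, 42 to 51.8 in SA:ANH, 23.2 to 27.3 in ANH, 22.3 to 34.9 in RES and 14.4 to 23.2 in NS. In SA IP 4 of 8 oligodendrocyte markers were called lower, and of 8 astrocyte markers 5 were called lower and 1 higher. Of the 8 oligodendrocyte markers, 6 were called lower in SA:ANH IP, and all 8 higher in ANH IP and in RES IP. The 5 excitatory neuron markers summed to 5529 to 5832 CPM in SA IP and 6838 to 7277 in NS IP, and the 8 meningeal fibroblast markers, of which Ogn was at 0 in SA, to 6.27 to 9.6 and 7.74 to 15.7. The 6 endothelial genes summed to 3.54 to 7.61 CPM in SA IP and 2.34 to 3.78 in NS IP, against 152 to 184 in Input. The part of these markers in the IP differences was not tested.

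Counts of these genes in IP were uneven between libraries of a group. The variance of the 6 counts was 4.21 to 25.7 times their mean for Rgs5, depending on the group, and 24.1 times for Pdgfrb in SA:ANH, where 1 library held 49 of 81 counts. Kdr in RES IP had 14 counts in 1 library and 0 in the other 5. Libraries were amplified without molecular identifiers, so counts are not independent molecules.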

How the data were processed

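The authors deposited 1 table of expected counts per gene for 55414 genes and 60 libraries, with 30 Input and 30 IP columns, each matched to 1 sample by name; 88.4% of values were whole within 0.000001. Libraries were made with SMART-Seq v4 and TruSeq v2 kits and sequenced as paired reads, per the labels' protocols. Trimmomatic 0.32, TopHat2 2.0.13, Bowtie2 2.2.3 and mm10 are named in the submitters' processing notes. No counting tool, strand setting or build of the gene positions was found in the sources used here. Few gene starts matched those of GRCm38 (0.754% of 38986 genes matched by symbol), so the 2 sets of positions were not joined. Without strand, reads of a gene and an antisense partner cannot be told apart.

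The expected counts were rounded to whole numbers, since the test takes counts. Genes were filtered with filterByExpr at a minimum count of 10, scaled by TMM and tested with edgeR 4.0.16 in R 4.3.3 (glmQLFit, glmQLFTest), with Benjamini-Hochberg adjustment over all genes tested and a threshold of 0.05. Input and IP were fitted separately (18170 and 16670 genes, 30 libraries each) for comparisons between groups, and together (18937 genes, 60 libraries) for IP against Input and for differences unlike in the 2 fractions. CPM are from TMM-scaled library sizes. The fits were also run on simulated counts, in which only genes with more counts than most members have in IP were changed. That run does not bear on the IP calls of those members. The members were found by gene name; the members and lists were chosen with earlier results of these data known. From each further list at most 3 genes with the smallest p of any difference in Input are named, apart from exceptions stated in the text. Alternatives were DESeq2 1.42.0, its size factors in edgeR, no filter on low counts, replicate number as a block, only the 12 libraries compared, and, chosen after seeing the data, leaving out single libraries. Correlations used 100000 permutations. The promoter came from RefSeq on GRCm38.p6, and windows of 100 bases were searched in GENCODE transcripts. Totals of 19078928 to 27073456 counts per library set the precision; counts have no molecular identifiers. Replicate numbers were not used to pair libraries in the main fits.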

Additional observations from a re-analysis of the deposited data

Results flagged for a closer look

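In 11 of 89 groups of 6 libraries, 1 library lay far from the other 5; chance gives about 1 in 20 groups of normal values, a rate that does not hold for the IP groups in which most libraries are at or near 0. In Input these were the highest Ly6c1 library of SA:ANH (71.7 CPM, next 64.8), the highest Flt1 library of RES (20.2 CPM, next 14.6) and the lowest Kdr library of NS (4.58 CPM, next 6.62). Ly6c1 stayed called in SA:ANH against NS without any 1 of the 12 libraries. In IP they were the lowest Cldn5 library of SA (0.0928 CPM, next 2.09) and the highest Pecam1 library of SA (1.65 CPM, next 0.557). The highest Acta2 library stood apart in NS (0.352 CPM, all others 0) and in SA:ANH (0.484 CPM, next 0.0464), as did the highest Pdgfrb library of SA:ANH (1.98 CPM, next 0.524). The highest Kdr library stood apart in SA:ANH (0.603 CPM), ANH (1.09 CPM) and RES (0.565 CPM).

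The difference between SA and NS was unlike in IP and Input for 3 genes by the test of the difference itself in edgeR's quasi-likelihood fit: 3.54 for Acta2, 1.91 for Ly6c1 and 1.67 for Flt1 on the log2 scale. The Acta2 value rests on 9 counts in NS IP replicate 3 and was 7.23 without that library. With replicate number as a block in the same fit, Flt1 did not pass (1.61, adjusted p = 0.0905).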

How the results depend on the processing

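Another scaling, DESeq2, no filter on low counts, a replicate block and a fit of only the 12 libraries compared gave recounts of called members. With the recomputed median correlations of member pairs these made 100 values. Of these, 90 stayed within the limit and 10, all counts of called members, did not. The limit was 1.5 times the count reported or, for the median correlation, the SD over the pairs. With DESeq2, SA against NS and RES against NS in Input each called 1 gene, SA:ANH against ANH called 2, SA:ANH against NS unlike in the fractions called 2 and the test over the 5 IP groups called 2. With only the 12 libraries, ANH against RES called 1, and in IP SA against NS and SA:ANH against NS called 1 each. Without the filter SA against NS in IP called 0. The cause was not tested. Single members kept their direction and side of the threshold in 754 of the recomputed values, passed newly in 7 and no longer passed in 6.

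Libraries of the same replicate number were only weakly alike. The correlation of same-numbered deviations had a median of 0.016 in Input, 0.00407 in IP and 0.0125 across the fractions. Its highest value was 0.0972, in Input. The medians for other numbers were lower, at -0.00398, -0.00256 and -0.00321. In Input 12 of 30 libraries correlated best with their own number, in IP 5 of 30 and across the fractions 21 of 60. Whether libraries of the same number are paired was not tested, so results with the replicate block are given beside the main fits. With the replicate block SA against NS in IP called 1 gene (Acta2), Ly6c1 having 2.03 with an adjusted p of 0.0529. Flt1 unlike in the fractions had 1.61 with an adjusted p of 0.0905, and 2 uncalled IP values of ANH against NS turned sign, Slco1a4 to -0.0779 and Pdgfrb to 0.132.

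Leaving out single libraries, done for comparisons with a called member, gave 1 to 1 genes for ANH against NS and SA:ANH against NS, 1 to 3 for ANH against RES, 0 to 1 for SA:ANH against SA, 1 to 2 for SA:ANH against ANH and for SA against ANH, 0 to 2 for SA against NS in IP and 3 to 4 for SA against NS unlike in the fractions. Acta2 in SA against NS in IP ran from 3.30 to 7.15, the last without NS replicate 3, which leaves NS at 0. In IP the few counts of 8 of the 9 genes limit every comparison between groups.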

Other observations

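Cd34 had an adjusted p of 3.89e-09 over the 5 IP groups. It stood at 82.2 ± 5.32 CPM in NS IP, 61.6 ± 3.35 in SA IP and 94.9 ± 4.47 in SA:ANH IP (n = 6 each). It fell in SA against NS by 0.42 on the log2 scale (edgeR adjusted p = 3.43e-06) and rose in SA:ANH by 0.21 (adjusted p = 0.0106). The SA difference was unlike in the 2 fractions (-0.47 ± 0.08, adjusted p = 2.82e-05). The direction in SA IP was thus opposite to that of Acta2 and Ly6c1. Ly6a, which stood at 0.725 ± 0.439 CPM in SA IP and 0.170 ± 0.146 in NS IP, was unlike in the fractions in SA in the other direction (2.11 ± 0.59, adjusted p = 0.014).

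Pdgfb, the ligand of Pdgfrb, had higher IP than Input levels. In IP it rose against NS in RES (29.6 ± 4.5 against 19.7 ± 2.86 CPM, 0.59 ± 0.11, adjusted p = 0.00107) and SA:ANH (0.37 ± 0.11, adjusted p = 0.0172), and SA did not pass (0.13 ± 0.11, adjusted p = 0.494).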
